A study of Mus musculus with 8 samples.

Results

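The transcripts of 10 genes of fatty acid use were followed in mouse myotubes, the multinucleated muscle cells that form when myoblasts fuse in culture. The genes are the fatty acid transporter Cd36, the lipase Lpl, the carrier Fabp3, the acyl-CoA synthetase Acsl1, the carnitine transferase Cpt1b, the oxidation enzymes Acadl and Hadha, the kinase Pdk4, the coactivator Ppargc1a and the nuclear receptor Ppard. They were chosen by symbol for their part in fatty acid use, with earlier results of these data known. All 10 were found among the 35275 genes of the expression table by their Ensembl identifiers. Of these, 8 had a mean of at least 1 FPKM (fragments per kilobase of gene, scaled to a library's mapped fragments) over all libraries and were tested, as were 10981 genes in all. Cd36 and Cpt1b were below that level.

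Primary myogenic progenitor cells (MPCs) from mice of the C57BL6/J strain were differentiated to myotubes in high-glucose medium with horse serum, and the myotubes were given extracellular vesicles (EVs), the membrane particles that cells release. The 4 groups, of 2 libraries each, were myotubes with MPC EVs for 12 h, myotubes with control EVs for 12 h, and the same treatments for 24 h. The control EVs came from growth media, and no untreated myotubes were sequenced, so a rise with MPC EVs and a fall with the control preparation cannot be told apart. Whether the 2 libraries of a group are separate cultures is not said in the labels, and p-values therefore describe the spread between libraries only, which may be technical.

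Muscle takes up fatty acids that lipases free from lipoproteins, binds them in the cytosol, activates them to acyl-CoA and carries them as carnitine esters into mitochondria, where beta-oxidation shortens them to acetyl-CoA. Pyruvate from glucose feeds the same pool of acetyl-CoA through the pyruvate dehydrogenase complex, which PDK enzymes switch off by phosphorylation. Genes of fatty acid use are known targets of PPAR receptors, which work with the coactivator encoded by Ppargc1a, and exercise and fasting are known to raise several of them in muscle.

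With MPC EVs, Acsl1 and Ppargc1a were higher than with control EVs, and Pdk4 was lower at 12 h. Taken over both times, Acsl1 was higher by 0.70 ± 0.10 (SE) and Ppargc1a by 0.83 ± 0.13 on the log2(FPKM + 0.5) scale, in which all differences here are given and which understates the change of low genes. The transcripts of the oxidation enzymes Acadl and Hadha, the carrier Fabp3 and the receptor Ppard did not pass the test at either time or over both. Differences are tested with limma, with p-values adjusted by the Benjamini-Hochberg method over all 10981 genes and a threshold of 0.05.

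At 12 h, 2 of the 8 tested genes rose with MPC EVs (Acsl1 and Ppargc1a) and 1 fell (Pdk4), where 4.36% of all tested genes rose and 14.3% fell. At 24 h, 1 rose (Acsl1) and none fell, where 2.61% of all tested genes rose and 0.956% fell. Over both times, 2 rose (Acsl1 and Ppargc1a) and none fell, where 4.2% of all tested genes rose and 4.34% fell. The median difference of the 8 genes was -0.05 at 12 h and 0.05 at 24 h, against -0.12 and -0.03 over all tested genes. With so few genes, a single call is a large share, and the counts describe these genes only. They are not a test of the set, since the genes were chosen with earlier results of these data known. Ppargc1a reached the mean of 1 FPKM only through the MPC EV libraries, since its control means were 0.448 and 0.961 FPKM, so its place among the tested genes depended on the groups in which it was high. With a filter of 0.1 FPKM, which each of its groups passed, it was called at 12 h and over both times as well.

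**Figure D1:**
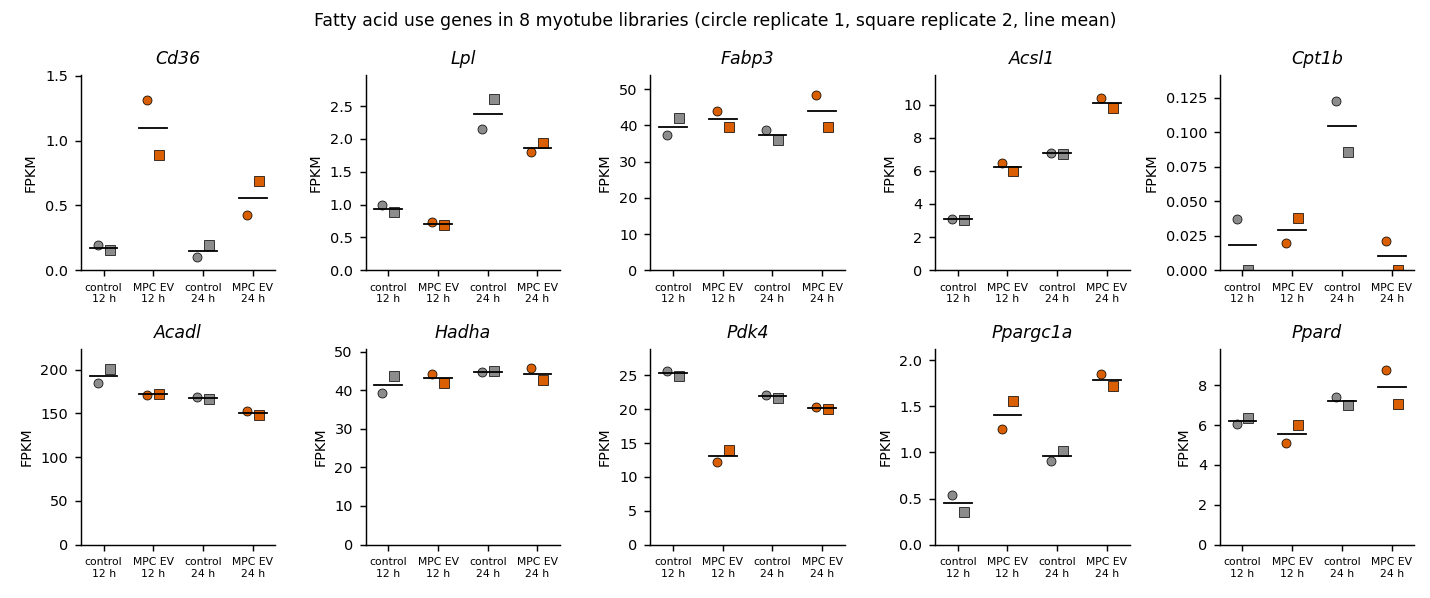
Expression of the 10 genes in FPKM (vertical axes, each starting at 0) in the 4 groups (horizontal axis), grey for control EVs and orange for MPC EVs. Circles are replicate 1, squares replicate 2 and lines the mean of both; Ppargc1a and Acsl1 were higher with MPC EVs at each time, and Pdk4 was lowest with MPC EVs at 12 h, at 12.1 and 13.96 FPKM.

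Library depth was 16324186 to 20187729 fragments per library. Control 12 h replicate 2 stood apart: its log2 values correlated with those of its partner at 0.947, against 0.992 to 0.996 for the other pairs. In it, the 206 transcripts over 5000 bases long and under 40% GC had a median deviation of -1.58 on the log2 scale from the mean of the other libraries. The myotube markers (10 of 10 at 1 FPKM or more) summed to 13433 to 15420 FPKM in controls and 14970 to 15461 with MPC EVs at 12 h, and to 9747 to 10083 and 12216 to 13420 at 24 h. With MPC EVs, 3 of the 10 rose at 12 h (Myh3, Actn2 and Ttn), 4 at 24 h (Myh3, Actn2, Ckm and Mb) and 3 over both times (Myh3, Actn2 and Ckm), and none fell. Of all tested genes, 4.36% rose and 14.3% fell at 12 h, 2.61% and 0.956% at 24 h, and 4.2% and 4.34% over both times. Ttn was at 11.8 and 3.66 FPKM in the 12 h controls, the lower value in replicate 2, and at 25.9 and 30.2 FPKM with MPC EVs. Actn2, a sarcomere protein, had ratios of means of 3.13 at 12 h and 6.83 at 24 h, and Myh3, the embryonic myosin, of 2.82 and 3.70. Of 9 adipocyte markers, 1 (Pparg) reached 1 FPKM and 2 were at 0 in every library, and none of 7 endothelial and 8 macrophage and blood markers reached it. Fibroblast and stromal markers (4 of 8 at 1 FPKM or more) summed to 21.5 to 24.7 FPKM with MPC EVs at 12 h against 31.5 to 32.5 in controls, and to 28.8 to 29.1 against 46.6 to 49.2 at 24 h. The part of these myotube and stromal markers in the results below was not tested. In bulk RNA, fewer cells of a type and less RNA per cell cannot be told apart.

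Ppargc1a encodes PGC-1alpha, a coactivator of nuclear receptors that is known for driving mitochondrial biogenesis and oxidative genes in muscle (ENSMUSG00000029167, chromosome 5, 51454250 to 51567726 in GRCm38). The 249 bases before its start, at chr5:51567727-51567975 on the minus strand of GRCm38.p6 (RefSeq), are shown because this promoter held the most matches to the E-box (CANNTG), the letters bound by myogenic and other basic helix-loop-helix factors, of the promoters examined.
Ppargc1a: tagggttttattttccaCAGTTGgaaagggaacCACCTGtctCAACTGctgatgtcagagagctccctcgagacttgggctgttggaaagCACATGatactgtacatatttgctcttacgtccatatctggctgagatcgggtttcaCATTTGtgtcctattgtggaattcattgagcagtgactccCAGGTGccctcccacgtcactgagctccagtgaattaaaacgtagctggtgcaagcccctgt
Capitals mark its 6 E-boxes. Of 32851 mouse promoters of 250 bases, 0.274% held 6 or more.

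Ppargc1a was scarce in all libraries, at the 2.21 percentile of the mean levels of the tested genes. At 12 h it was at 0.537 and 0.358 FPKM in the control libraries and at 1.26 and 1.56 FPKM with MPC EVs. At 24 h it was at 0.911 and 1.01 FPKM in controls and at 1.86 and 1.72 FPKM with MPC EVs. The libraries with MPC EVs lay above the controls of their time without overlap, and the lowest of all 8 values was that of control 12 h replicate 2. These values rest on 46 to 200 fragments per library.

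At 12 h the mean of Ppargc1a was 0.448 ± 0.126 FPKM (SD, n = 2) in controls and 1.41 ± 0.213 with MPC EVs, a ratio of means of 3.15 and a log2 difference of 1.01 ± 0.16 (SE, limma adjusted p = 0.0143). At 24 h the means were 0.961 ± 0.071 and 1.79 ± 0.097 FPKM, with a log2 difference of 0.65 ± 0.16 that did not pass (adjusted p = 0.107). Over both times the difference was 0.83 ± 0.13 (adjusted p = 0.0105), and it passed in all 20 alternatives tried, at 0.62 to 1.18. The call at 12 h was lost without MPC EV 12 h replicate 1 (1.13, adjusted p = 0.0648) and without replicate 2 (0.90, adjusted p = 0.0864), while without control 12 h replicate 2 the difference was 0.88 (adjusted p = 0.0232). The call at 12 h was also lost with quantile normalization (0.82, adjusted p = 0.0578) and with a correction for GC content and length (0.69, adjusted p = 0.0798), and when only the 4 libraries of that time were fitted (1.01, adjusted p = 0.141). At 24 h the difference passed without control 12 h replicate 1 or replicate 2 (adjusted p = 0.0481 and 0.0463). The difference between the effects at the 2 times was -0.37 ± 0.23 (adjusted p = 0.407).

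PGC-1alpha has 2 relatives, encoded by Ppargc1b and Pprc1. Ppargc1a made up 1.49% to 2.57% of the summed FPKM of the 3 genes in the control libraries at 12 h and 6.63% to 7.08% with MPC EVs, and 4.17% to 4.75% and 6.90% to 7.44% at 24 h. Most of the sum was Pprc1, at 13.4 to 19.9 FPKM. Ppargc1b rose over both times by 0.45 ± 0.11 (adjusted p = 0.0411), from 3.46 ± 0.580 to 4.87 ± 0.725 FPKM at 12 h and from 4.10 ± 0.496 to 5.83 ± 0.073 FPKM at 24 h, a call kept in 9 of 20 alternatives. Pprc1 fell at 12 h by 0.37 on the log2 scale (adjusted p = 0.0411) and was at 16.5 ± 0.024 and 17.3 ± 0.148 FPKM at 24 h. The fall of Pprc1 was kept in 6 of 22 alternatives.

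Pdk4 encodes a kinase that inactivates the pyruvate dehydrogenase complex and is known to rise in muscle when fatty acids are the main fuel (ENSMUSG00000019577, chromosome 6, 5483351 to 5496309). The 219 bases before the annotated gene, at chr6:5496310-5496528 on the minus strand of GRCm38.p6 (RefSeq), are shown as the promoter of the gene with the largest fall at 12 h among the 8 tested.
Pdk4: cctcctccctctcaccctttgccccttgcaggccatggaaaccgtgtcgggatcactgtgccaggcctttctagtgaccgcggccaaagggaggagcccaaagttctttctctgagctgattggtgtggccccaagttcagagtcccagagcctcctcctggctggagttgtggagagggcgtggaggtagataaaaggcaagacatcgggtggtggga
No match to any motif searched lay in this stretch. The only match in the window of 250 bases before the RefSeq start was an E-box 26 bases before that start, within the annotated gene.

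Pdk4 was at 25.6 and 25.0 FPKM in the control libraries at 12 h and at 12.1 and 13.96 FPKM with MPC EVs. At 24 h it was at 22.2 and 21.7 FPKM in controls and at 20.3 and 20.1 FPKM with MPC EVs. The 2 libraries with MPC EVs at 12 h were the lowest of the 8 by a wide gap, and the others lay within 20.1 to 25.6 FPKM. These values rest on 732 to 1727 fragments per library.

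At 12 h the mean of Pdk4 was 25.3 ± 0.458 FPKM (SD, n = 2) in controls and 13.1 ± 1.29 with MPC EVs, a log2 difference of -0.93 ± 0.08 (SE, limma adjusted p = 0.00332). The fall passed in 21 of 22 alternatives, at -1.07 to -0.79, and was not called when only the 4 libraries of that time were fitted (adjusted p = 0.08). At 24 h the means were 21.9 ± 0.341 and 20.2 ± 0.155 FPKM, and the difference of -0.12 ± 0.08 did not pass (adjusted p = 0.664). The effects at the 2 times differed by 0.82 ± 0.11, which did not pass (adjusted p = 0.0985). The difference was 0.80 without control 12 h replicate 1 and 0.84 without replicate 2, fits that leave 1 control library at 12 h. In the fit of all 8 libraries, no gene of 10981 passed the test of the difference (0%), and 2014 had an unadjusted p under 0.05. Over both times the difference of Pdk4 was -0.52 ± 0.16 (adjusted p = 0.0943).

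Among the 4 PDK genes, Pdk4 gave the most FPKM in every library. It made up 52.3% to 54.4% of their sum in the control libraries at 12 h, 32.7% to 35.6% with MPC EVs at 12 h, 45.1% to 48.9% in controls at 24 h and 41.5% to 42.0% with MPC EVs at 24 h. The sum of the 4 genes was 47.4 ± 0.429 FPKM in controls and 38.2 ± 1.48 with MPC EVs at 12 h, and 46.7 ± 1.94 and 48.4 ± 0.024 at 24 h. Pdk1 moved the other way at 12 h, from 6.69 ± 0.369 to 9.33 ± 0.171 FPKM (0.45 ± 0.08, adjusted p = 0.0183), and was higher over both times (0.36 ± 0.07, adjusted p = 0.0207). Pdk2 was at 8.97 to 11.8 FPKM and Pdk3 at 4.72 to 6.36 FPKM over the 8 libraries, and neither passed.

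Other genes at the entry of pyruvate were also described. Pdp1, the phosphatase that reverses the PDK reaction, was at 3.42 and 2.39 FPKM in controls and 5.74 and 5.84 with MPC EVs at 12 h, and rose by 0.90 ± 0.15 (adjusted p = 0.0159). Mpc1, a subunit of the mitochondrial pyruvate carrier, went from 1.83 ± 0.001 to 3.50 ± 0.059 FPKM at 12 h (0.78 ± 0.10, adjusted p = 0.00784). At 24 h it was at 3.55 ± 0.087 FPKM in controls and 2.64 ± 0.138 with MPC EVs, a difference of -0.36 that did not pass (adjusted p = 0.132). The values of Mpc1 rest on 33 to 70 fragments per library, so the SD of 0.001 FPKM understates their uncertainty. With only the 4 libraries of 12 h fitted, its call was lost (limma adjusted p = 0.113), as were those of Pdk1 (0.157) and Pdp1 (0.142). Of the 13 tested genes of the pyruvate dehydrogenase complex and its regulators other than Pdk4, 3 rose at 12 h (Pdk1, Pdp1 and Mpc1) and none fell, and none passed at 24 h. Of all tested genes, 4.36% rose and 14.3% fell at 12 h, and 2.61% and 0.956% at 24 h. Each of these 3 calls was lost when either MPC EV 12 h library was left out, with differences of 0.44 to 0.91 and adjusted p of 0.0528 to 0.0924, and that of Pdk1 also without MPC EV 24 h replicate 1 (adjusted p = 0.0508). The correction for GC content and length ended the 12 h calls of Pdk1 (0.29, adjusted p = 0.262) and Pdp1 (0.58, adjusted p = 0.0525). The call of Pdk1 over both times was kept in 13 of 21 alternatives. Of the fits without 1 library, only those without replicate 2 of the controls, at 12 h or at 24 h, kept it, and the others gave 0.32 to 0.38 with adjusted p of 0.0510 to 0.0778.

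**Figure D2:**
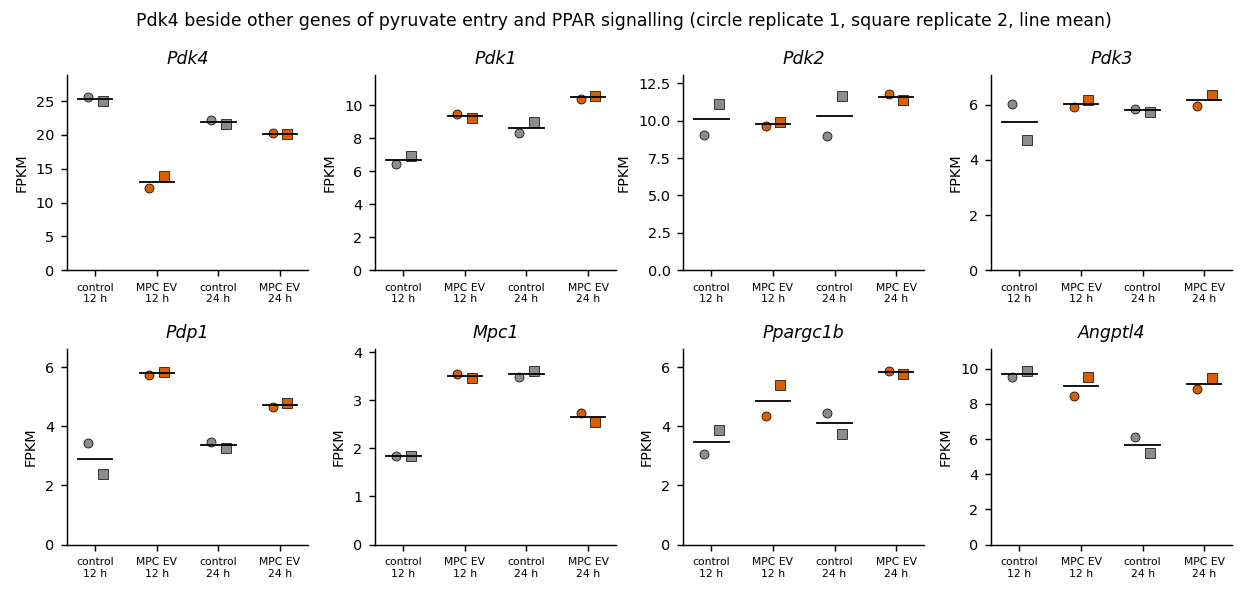
FPKM (vertical axes, starting at 0) of Pdk4, the other 3 PDK genes, Pdp1, Mpc1, Ppargc1b and Angptl4 in the 4 groups, grey for control EVs and orange for MPC EVs. Circles are replicate 1, squares replicate 2 and lines means; at 12 h Pdk4 was lower with MPC EVs while Pdk1, Pdp1 and Mpc1 were higher, and Angptl4 was lowest in the control libraries at 24 h, at 5.19 and 6.10 FPKM.

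Acsl1 encodes the long-chain acyl-CoA synthetase that activates fatty acids at the mitochondrial surface and is known as the main form in heart and skeletal muscle (ENSMUSG00000018796, chromosome 8, 46471037 to 46536051). RefSeq gives it a pair of starts, and the 250 bases before each are shown because the gene rose at both times: the first at chr8:46470787-46471036 and the second at chr8:46490716-46490965, on the plus strand of GRCm38.p6.
Acsl1 start 1: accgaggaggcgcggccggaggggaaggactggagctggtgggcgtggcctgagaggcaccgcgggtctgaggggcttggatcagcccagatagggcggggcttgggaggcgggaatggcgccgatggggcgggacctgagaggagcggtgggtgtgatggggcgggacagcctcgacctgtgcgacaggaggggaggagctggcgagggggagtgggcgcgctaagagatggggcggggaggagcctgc
Acsl1 start 2: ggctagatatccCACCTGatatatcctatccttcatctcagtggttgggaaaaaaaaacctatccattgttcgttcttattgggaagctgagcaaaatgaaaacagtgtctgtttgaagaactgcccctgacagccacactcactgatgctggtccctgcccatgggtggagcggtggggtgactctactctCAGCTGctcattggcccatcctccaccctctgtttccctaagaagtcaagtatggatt
Capitals mark E-boxes, of which the first held none and the second 2. The first was 72.0% GC and the second 48.4%, and the values here do not tell which start was used.

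Acsl1 was at 3.09 and 3.05 FPKM in the control libraries at 12 h and at 6.45 and 6.01 FPKM with MPC EVs. At 24 h it was at 7.09 and 7.02 FPKM in controls and at 10.4 and 9.80 FPKM with MPC EVs. The libraries with MPC EVs lay above the controls of their time by far more than the gap between replicates, and no groups overlapped. The means were 3.07 ± 0.028 and 6.23 ± 0.308 FPKM (SD, n = 2) at 12 h and 7.05 ± 0.050 and 10.1 ± 0.406 FPKM at 24 h. These values rest on 326 to 993 fragments per library.

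The log2 difference of Acsl1 was 0.91 ± 0.08 at 12 h (SE, limma adjusted p = 0.00372) and 0.49 ± 0.08 at 24 h (adjusted p = 0.0346). Over both times it was 0.70 ± 0.10 (adjusted p = 0.00736), and it passed in all 21 alternatives, at 0.62 to 0.77. At 12 h the call was lost with the correction for GC content and length (0.70, adjusted p = 0.0523) and with only the 4 libraries of that time (0.91, adjusted p = 0.0922), but not when any single library was left out. It held in 19 of 22 alternatives. At 24 h the call was lost without any 1 of the 4 libraries of that time or of the MPC EV libraries at 12 h, with values of 0.45 to 0.53 and adjusted p of 0.0727 to 0.272. It was also lost with no filter on low values (0.49, adjusted p = 0.0641), with quantile normalization (0.51, adjusted p = 0.0936) and with the GC and length correction (0.54, adjusted p = 0.191), and held in 11 of 22 alternatives. The effects at the 2 times differed by -0.43 ± 0.12 (adjusted p = 0.167), and by -0.44 without control 12 h replicate 1. An antisense transcript (Gm45244) overlaps 1039 bases of its exons, and the libraries were not strand-specific, so its reads cannot be told apart.

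Acsl1 was not the main acyl-CoA synthetase transcript of these cells. It made up 3.07% to 4.29% of the summed FPKM of 5 genes (Acsl1, Acsl3, Acsl4, Acsl5 and Acsl6) in the control libraries at 12 h, 6.52% to 6.77% with MPC EVs, 6.63% to 6.78% in controls at 24 h and 11.7% to 13.8% with MPC EVs. Acsl3 was the largest of the 5 in every library, at 37.3 to 64.2 FPKM. Acsl4 was at 3.81 FPKM in control 12 h replicate 2 and at 14.3 to 25.4 FPKM in the other 7 libraries, so the share of 4.29% in that library rests on a smaller sum. Acsl5 fell with MPC EVs, by 0.47 on the log2 scale at 12 h (adjusted p = 0.0169) and by 0.38 over both times (adjusted p = 0.0155), from 14.6 ± 1.17 to 10.4 ± 0.220 FPKM at 12 h and from 15.7 ± 0.401 to 12.7 ± 0.424 FPKM at 24 h. The fall of Acsl5 over both times was kept in 15 of 21 alternatives.

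**Figure D3:**
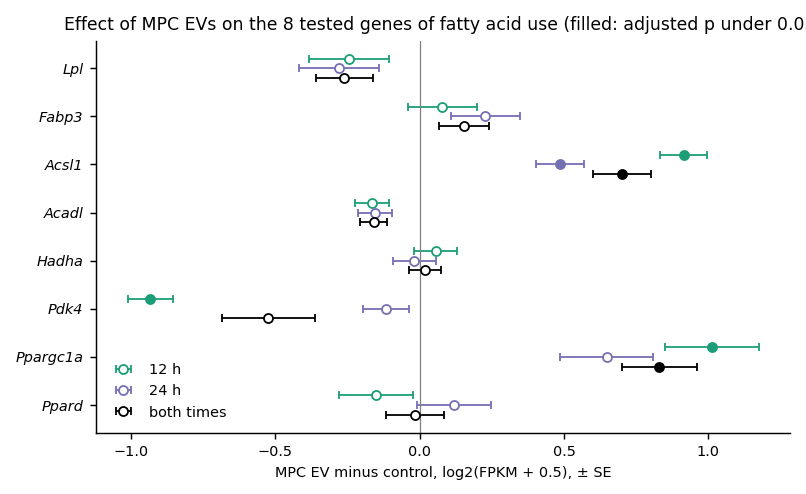
Difference between MPC EV and control libraries in log2(FPKM + 0.5) (horizontal axis) for the 8 tested genes (vertical axis) at 12 h, at 24 h and over both times, with standard errors as bars. Filled points had an adjusted p under 0.05: Acsl1 in all 3 comparisons, Ppargc1a at 12 h and over both times, and Pdk4 at 12 h.

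Cd36 encodes the transporter through which muscle takes up much of its fatty acid (ENSMUSG00000002944, chromosome 5, 17781690 to 17888801). At 12 h it was at 0.195 and 0.155 FPKM in the control libraries and at 1.31 and 0.887 FPKM with MPC EVs. At 24 h it was at 0.0996 and 0.194 FPKM in controls and at 0.429 and 0.686 FPKM with MPC EVs. All 4 libraries with MPC EVs were above all 4 controls, but the numbers were small, at 7 to 14 fragments per control library and 25 to 81 with MPC EVs.

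The ratio of the means of Cd36 was 6.28 at 12 h and 3.79 at 24 h. Its mean over the libraries, 0.495 FPKM, kept it out of the main test. With a filter of 0.1 FPKM in place of 1, which tested 15048 genes, it rose at 12 h (1.23 ± 0.20, adjusted p = 0.0166), where 3.28% of those genes rose, and over both times (0.97 ± 0.16, adjusted p = 0.0147), where 3.35% rose. At 24 h it did not pass (0.70 ± 0.20, adjusted p = 0.163). A fit to the fragment numbers with precision weights, added after the data were seen, gave a log2 difference of 2.58 ± 0.47 at 12 h (adjusted p = 0.0225) and of 2.29 ± 0.36 over both times (adjusted p = 0.0104), on a scale without the added 0.5 FPKM. With the filter of 0.1 FPKM, the rise at 12 h was lost without MPC EV 12 h replicate 1 (1.04, adjusted p = 0.0912) or replicate 2 (1.42, adjusted p = 0.0605). The rise over both times was lost without replicate 1 of the controls at 12 h or 24 h and without replicate 2 of the MPC EV libraries at 12 h or 24 h, with adjusted p of 0.0508 to 0.0549 and values of 0.93 to 0.99.

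Cd36 is also a gene of fat cells, endothelium and macrophages. Pparg, at 2.62 to 4.91 FPKM, and the macrophage marker Cd68, at 0.521 to 1.74 FPKM, were above most values of Cd36. The adipocyte markers summed to 2.79 to 3.66 FPKM in controls and 4.69 to 4.91 with MPC EVs at 12 h, and to 4.82 to 5.15 and 4.87 to 5.90 at 24 h, most of it Pparg. The endothelial markers summed to 0.171 to 0.507 FPKM and the macrophage and blood markers to 1.33 to 2.99 FPKM over the 8 libraries. The endothelial and macrophage sums with MPC EVs at 12 h were 0.312 to 0.362 and 2.10 to 2.19 FPKM, against 0.292 to 0.437 and 1.33 to 2.06 in controls. The part of these cells in the level of Cd36 was not tested.

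Lpl encodes lipoprotein lipase, which muscle and fat cells secrete to free fatty acids from circulating lipoproteins (ENSMUSG00000015568, chromosome 8, 68880491 to 68907448). It was at 0.986 and 0.881 FPKM in controls and at 0.730 and 0.689 FPKM with MPC EVs at 12 h, and at 2.15 and 2.61 FPKM in controls and 1.80 and 1.93 FPKM with MPC EVs at 24 h. The libraries with MPC EVs were below the controls at each time, without overlap, but the differences of -0.24 ± 0.14 (adjusted p = 0.231) and -0.28 ± 0.14 (adjusted p = 0.467) did not pass. Lpl is the gene of the 8 that differed most with time, and it rose by 0.99 ± 0.10 from 12 h to 24 h (adjusted p = 0.000555). That rise passed in all 20 alternatives, at 0.77 to 1.36, the filter of 0.1 FPKM among them. Lpl reached the mean of 1 FPKM only through the 24 h libraries, since its 12 h means were 0.934 FPKM in controls and 0.709 with MPC EVs. Its place among the tested genes thus depended on the time at which it was high.

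Fabp3 encodes the heart and muscle form of the cytosolic fatty acid binding proteins (ENSMUSG00000028773, chromosome 4, 130308595 to 130315463). It was at 37.2 and 42.0 FPKM in controls and at 44.1 and 39.6 FPKM with MPC EVs at 12 h, and at 38.8 and 36.0 FPKM in controls and 48.5 and 39.7 FPKM with MPC EVs at 24 h. The groups overlapped at 12 h. The differences were 0.08 ± 0.12 at 12 h and 0.23 ± 0.12 at 24 h, and neither passed (adjusted p = 0.636 and 0.5). With the correction for GC content and length the difference at 12 h was 0.43 and passed (adjusted p = 0.0481). Fabp3 made up 83.5% to 88.3% of the summed FPKM of Fabp3, Fabp4 and Fabp5. Fabp5, the epidermal form, fell at 12 h by 0.46 on the log2 scale (adjusted p = 0.0221). The exons of Fabp3 share 81 bases with Zcchc17 on the other strand, which was at a mean of 12.6 FPKM.

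Cpt1b encodes the muscle form of carnitine palmitoyltransferase, the step at which malonyl-CoA limits the entry of fatty acids into mitochondria (ENSMUSG00000078937, chromosome 15, 89416405 to 89425863). It was nearly absent from the table, with 0 to 2 fragments in the libraries at 12 h, 7 and 5 in controls at 24 h, and 1 and 0 with MPC EVs at 24 h. A count of 0 allows up to 3 fragments, or 0.0513 to 0.0635 FPKM depending on the library. The controls at 24 h, at 0.123 and 0.0856 FPKM, were above that range, and every other library was below it. With no filter on low values, the difference at 24 h was -0.24 and did not pass (limma adjusted p = 0.166). Fragment numbers this small leave the levels of the groups uncertain. The gene Gm44502 on the same strand covers 2744 bases (81.4%) of the exons of Cpt1b and was not analysed here, and how fragments in the shared exons were assigned is not given in the sources used here. Cpt1a, the form of liver and many other tissues, was at 11.1 to 14.3 FPKM and Cpt1c at 2.69 to 5.76 FPKM.

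Acadl encodes the long-chain acyl-CoA dehydrogenase of the opening step of beta-oxidation (ENSMUSG00000026003, chromosome 1, 66830839 to 66863277), and it was the most abundant of the 10 genes. It was at 184 and 201 FPKM in controls and at 171 and 172 FPKM with MPC EVs at 12 h, and at 168 and 166 FPKM in controls and 153 and 148 FPKM with MPC EVs at 24 h. The libraries with MPC EVs lay below the controls at each time, without overlap. The differences of -0.16 ± 0.06 at 12 h (adjusted p = 0.0985), -0.16 ± 0.06 at 24 h (adjusted p = 0.303) and -0.16 ± 0.05 over both times (adjusted p = 0.0782) did not pass, and the median of all tested genes was -0.12 at 12 h. With median-ratio scaling the difference at 12 h was -0.02 (adjusted p = 0.800). Without control 12 h replicate 1, which leaves a lone control library at 12 h, it was -0.23.

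Acadl fell by 0.20 ± 0.05 on the log2 scale from 12 h to 24 h (adjusted p = 0.0208), a call that was lost in 7 of 21 alternatives. These included leaving out either MPC EV library of 12 h, either control of 24 h or MPC EV 24 h replicate 2, with values of -0.20 to -0.19 and adjusted p of 0.0540 to 0.0773. Acadl stood at 8.85 to 12.6 times the FPKM of Acadm and 6.23 to 8.03 times that of Acadvl, the medium-chain and very-long-chain enzymes. It made up 71.5% to 75.8% of the summed FPKM of Acadl, Acadvl, Acadm and Acads.

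Hadha encodes the alpha subunit of the mitochondrial trifunctional protein, which carries out the later steps for long chains (ENSMUSG00000025745, chromosome 5, 30118304 to 30155162). It varied least of the 10 genes, by a ratio of 1.17 between its lowest and highest library, 39.1 and 45.8 FPKM. It was at 39.1 and 43.7 FPKM in controls and at 44.1 and 41.9 FPKM with MPC EVs at 12 h, and at 44.7 and 44.9 FPKM in controls and 45.8 and 42.7 FPKM with MPC EVs at 24 h. The groups overlapped at each time, and the differences were 0.06 ± 0.07 (adjusted p = 0.589) and -0.02 ± 0.07 (adjusted p = 0.968). Hadhb, the beta subunit, was lower throughout, with Hadha at 2.99 to 3.65 times its FPKM.

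Ppard encodes PPARdelta, the fatty acid sensing nuclear receptor that predominates in skeletal muscle (ENSMUSG00000002250, chromosome 17, 28232700 to 28301474). It was at 6.05 and 6.37 FPKM in controls and at 5.11 and 5.998 FPKM with MPC EVs at 12 h, and at 7.39 and 7.004 FPKM in controls and 8.76 and 7.05 FPKM with MPC EVs at 24 h. The groups overlapped at 24 h but not at 12 h, and the differences were -0.15 ± 0.13 (adjusted p = 0.393) and 0.12 ± 0.13 (adjusted p = 0.843). Ppard made up 54.99% to 69.7% of the summed FPKM of the 3 PPAR genes, most of the rest was Pparg at 2.62 to 4.91 FPKM, and Ppara was at 0.0149 to 0.126 FPKM. From 12 h to 24 h Ppard differed by 0.33 ± 0.10 (adjusted p = 0.0529), and by 0.37 without control 12 h replicate 2.

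With time, 3 of the 8 tested genes rose from 12 h to 24 h (Lpl, Acsl1 and Ppargc1a) and 1 fell (Acadl), where 13.5% of all tested genes rose and 9.18% fell. Lpl was among the tested genes only through its 24 h libraries. The same holds for Ppargc1a, which averaged below 1 FPKM over the 12 h libraries, with group means of 0.448 and 1.41 FPKM. Acsl1 rose by 0.87 ± 0.10 (adjusted p = 0.001005), in all 21 alternatives. Ppargc1a rose by 0.45 ± 0.13 (adjusted p = 0.0465), a call that held in 4 of 20 alternatives and that was lost when any library other than MPC EV 12 h replicate 2 was left out, with values of 0.36 to 0.50 and adjusted p of 0.0549 to 0.128. Pdk4 differed by 0.21 ± 0.16 (adjusted p = 0.415), Hadha by 0.08 ± 0.06 (adjusted p = 0.395) and Fabp3 by less than its standard error of 0.09 (adjusted p = 0.975). The median of the 8 genes was 0.27, against 0.06 over all tested genes.

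Promoters of 8 of the 10 genes, with 9 starts, were in the RefSeq table (GRCm38.p6), and Lpl and Cpt1b were not matched. Each window of 250 bases before the start was searched on both strands for the DR1 element of PPAR and RXR (AGGTCA, any 1 base, AGGTCA), the same with 1 mismatch, the element of estrogen-related receptors (TCAAGGTCA), the MEF2 element (TAAAAATA), the E-box (CANNTG) and the FOXO element (TGTTTAC). E-boxes were in 7 of the 9 windows (77.8%), against 66.2% of 32851 mouse promoters of that length. None of the other elements was found in any of the 9 windows. They occurred in 0.0335%, 0.484%, 0.387%, 2.45% and 3.17% of all promoters in the order given, leaving out the E-box, so no match was the usual case. A match is a description of the letters, and its absence says only that they are not in this window.

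The genes around these steps were drawn from 11 lists with 122 further genes, of which 104 were tested. These lists were also chosen with earlier results known, so their counts are a description. At 12 h 6 of them rose and 15 fell with MPC EVs, at 24 h 2 rose and none fell, and over both times 5 rose and 3 fell. Of all tested genes, 4.36% rose and 14.3% fell at 12 h, 2.61% and 0.956% at 24 h, and 4.2% and 4.34% over both times, and the share of the list genes that fell at 12 h was near that background. Their median difference was -0.11 at 12 h, against -0.12 over all tested genes. The split at 12 h moved with the scaling: it was 12 higher and 4 lower with median-ratio scaling, 8 and 3 with quantile normalization, and 10 and 0 with the correction for GC content and length. It also moved when a library of 12 h was left out, which leaves a lone library in a group. The shares of all tested genes moved in those fits too. Their median difference was -0.17 without control 12 h replicate 1 and -0.10 without replicate 2. Without MPC EV 12 h replicate 1 or replicate 2 it was -0.10 and -0.12. Median-ratio scaling moved the median of all tested genes at 12 h from -0.12 to 0.02, and with it 58.0% of all calls were higher, against 23.4% without it. That share was 40.4% with quantile normalization and 56.4% with the correction for GC content and length. The background of the list counts thus moved with the scaling as well.

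Mitochondrial beta-oxidation had 15 tested genes besides Acadl and Hadha, of which none rose and 3 fell at 12 h, where 14.3% of all tested genes fell. Echs1, the enoyl-CoA hydratase, fell by 0.28 at 12 h (adjusted p = 0.0464) and by 0.28 over both times (adjusted p = 0.0235) on the log2 scale, from 17.6 ± 0.999 to 14.4 ± 0.253 FPKM and from 21.0 ± 0.043 to 17.2 ± 1.08 FPKM. Eci1, an isomerase for unsaturated chains, fell by 0.43 (adjusted p = 0.0296) and Acads, the short-chain dehydrogenase, by 0.32 (adjusted p = 0.0304) at 12 h. The 12 h calls were kept in 4 of 22 alternatives for Echs1, 10 for Eci1 and 9 for Acads, and that of Echs1 over both times in 12 of 21. Of the 8 fits without 1 library, the 12 h calls of Echs1 and Acads were kept only without control 12 h replicate 1, and that of Eci1 only without either control of 12 h. With median-ratio scaling none of these 3 passed at 12 h, and the difference of Acads was 0.034 with the correction for GC content and length. Acaa2, the thiolase of the last step, was higher by 0.41 ± 0.10 over both times, which did not pass (adjusted p = 0.0536).

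Among 7 tested genes of the carnitine shuttle and malonyl-CoA, Cpt2, the transferase of the inner membrane, fell at 12 h by 0.32 (adjusted p = 0.0475) and over both times by 0.28 (adjusted p = 0.0351) on the log2 scale, and no other passed. Of the 22 and 21 alternatives, 5 and 9 kept these calls, and of the 8 fits without 1 library, 1 and 2 did (at 12 h the fit lacking control 12 h replicate 1, and over both times those lacking replicate 2 of the 12 h controls and replicate 1 of the MPC EV libraries at 24 h). Among 8 of activation and thioesterases besides Acsl1, Acss2, an acetyl-CoA synthetase, rose over both times by 0.62 ± 0.11 (adjusted p = 0.0176), and Acot7, a thioesterase, fell at 12 h by 0.55 (adjusted p = 0.00793). These calls were kept in 16 of 21 and 17 of 22 alternatives. Among 10 of lipolysis and lipid droplets, G0s2, an inhibitor of adipose triglyceride lipase, fell at 12 h by 0.65 (adjusted p = 0.0192), and Pnpla2, the gene of that lipase, fell by 0.35 (adjusted p = 0.0460), calls kept in 15 and 5 of 22 alternatives. Angptl4, an inhibitor of lipoprotein lipase and a PPAR target, rose at 24 h from 5.65 ± 0.641 to 9.15 ± 0.426 FPKM (0.65 ± 0.11, adjusted p = 0.0320) and was at 9.71 ± 0.251 and 9.004 ± 0.779 FPKM at 12 h. The rise of Angptl4 was lost without any 1 of the 4 libraries at 24 h or of the MPC EV libraries at 12 h, with values of 0.55 to 0.76 and adjusted p of 0.0628 to 0.217.

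Of 16 tested genes listed as regulators upstream of Ppargc1a, 1 rose and 1 fell at 12 h and 1 rose at 24 h, where the shares of all tested genes were 4.36%, 14.3% and 2.61%. Mef2c, a transcription factor of muscle, was at 42.2 and 12.0 FPKM in controls and at 99.3 and 93.3 FPKM with MPC EVs at 12 h, and rose by 2.07 ± 0.51 (adjusted p = 0.0395). Without control 12 h replicate 2, whose value was the lowest, the rise was 1.18 and still passed. The call was lost without either of the MPC EV libraries at 12 h (adjusted p = 0.149 and 0.145), without any 1 of the 4 libraries of 24 h (adjusted p of 0.0773 to 0.0824), with no filter on low values (adjusted p = 0.0736) and with only the 4 libraries of that time (adjusted p = 0.180). Mef2d, of the same family, rose over both times by 0.34 ± 0.06 (adjusted p = 0.0187), a call kept in 14 of 21 alternatives and, of the 8 fits without 1 library, only in that without control 12 h replicate 2. Kat2a, an acetyltransferase of PGC-1alpha, fell at 12 h by 0.34 on the log2 scale (adjusted p = 0.0448), a call kept in 5 of 22 alternatives and, of those 8 fits, only in that without control 12 h replicate 1. Klf15, a regulator of lipid use in muscle, rose with time by 1.05 ± 0.11 (adjusted p = 0.000553), from 0.664 ± 0.112 to 1.93 ± 0.191 FPKM in controls and from 0.767 ± 0.019 to 2.10 ± 0.248 FPKM with MPC EVs. The 12 h means of Klf15 were below the filter of 1 FPKM, so it was among the tested genes only through the libraries of 24 h, where it was high.

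Among 8 mitochondrial biogenesis factors none rose and 1 fell at 12 h, Nrf1 by 0.41 on the log2 scale (adjusted p = 0.0236), and none passed at 24 h or over both times. Of all tested genes 14.3% fell at 12 h, beside which this list and those that follow are to be read, and the call of Nrf1 was kept in 11 of 22 alternatives. Tfam, the factor that packages mitochondrial DNA, was in this list and did not pass. Of 7 tested PPAR target genes of muscle, none passed at 12 h and 1 rose at 24 h (Angptl4). Of 10 tested genes in the list of nuclear receptors and coactivators, 1 rose (Ncor1, a corepressor, chosen after its value was seen) and 2 fell (Rxrb and Pprc1) at 12 h. Ncor1 was at 19.1 and 15.2 FPKM in the 12 h controls, the lower value in replicate 2, and at 22.5 and 23.4 FPKM with MPC EVs. Of 8 uptake and binding genes, 1 fell (Fabp5) at 12 h, and of 8 peroxisomal genes 1 fell (Acox3). The falls of Rxrb, Fabp5 and Acox3 were kept in 10, 12 and 5 of 22 alternatives.

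**Figure D4:**
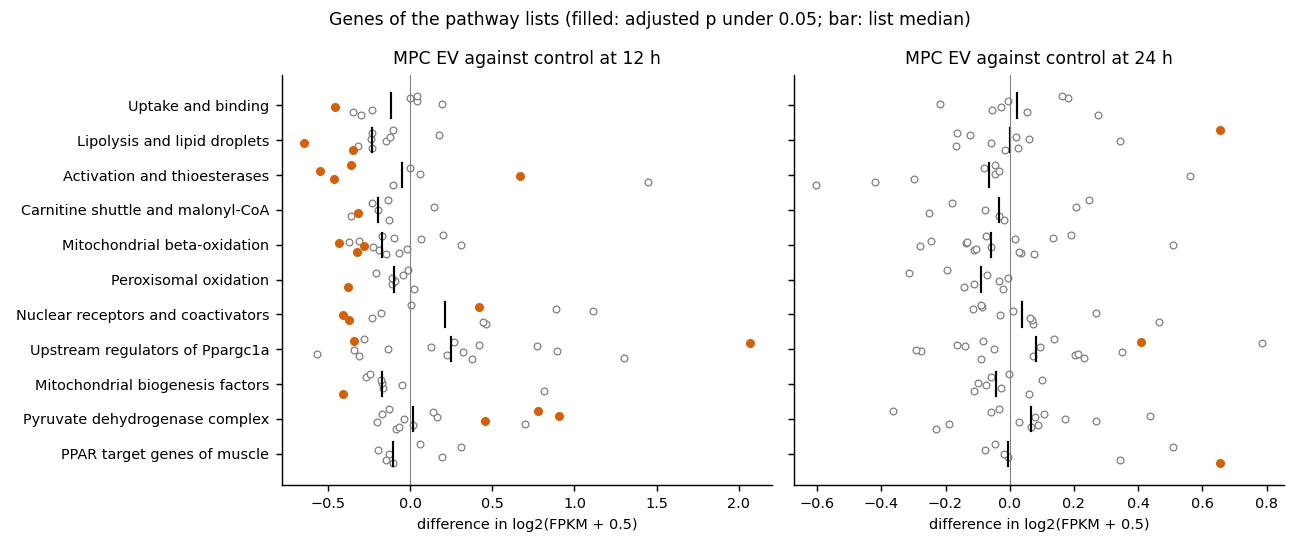
Difference between MPC EV and control libraries in log2(FPKM + 0.5) (horizontal axes, on separate scales) for the tested genes of 11 lists (vertical axis) at 12 h and at 24 h. Orange points had an adjusted p under 0.05 and black bars are list medians. Most lists have medians near those of all tested genes, -0.12 at 12 h and -0.03 at 24 h. At 12 h the medians of nuclear receptors and coactivators (0.21) and of upstream regulators of Ppargc1a (0.25) were above it. Some genes of these 2 lists were lowest in control 12 h replicate 2, such as Sirt1 (7.71 FPKM in replicate 1, 1.60 in replicate 2) and Esrrg (4.05, 1.68). Others, such as Foxo1 (6.45, 7.06) and Esrra (26.2, 31.0), were not. The part of control 12 h replicate 2 in these medians was not tested.

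Restricted to genes averaging 2 FPKM or more, those whose levels followed each of the 8 tested genes most closely over the 8 libraries were found by Pearson's r of log2 values, as a description with no test, since the libraries share treatments and times. The closest to Ppargc1a was Sema6d (r = 0.997), followed by Camk2d and Prrg4. The closest to Acsl1 was Fgfr3 (r = 0.991), followed by Map1a and Tspan15, and the closest to Pdk4 was Zdhhc3 (r = 0.984). Lpl was closest to Hmgn2 (r = 0.997), Acadl to B4galt2 (r = 0.988), Ppard to Sp3os (r = 0.972), Hadha to Scyl3 (r = 0.960) and Fabp3 to Fitm1 (r = 0.931). Among the 8 genes themselves, Acsl1 and Ppargc1a had r = 0.903, and Acadl had r = -0.950 with Acsl1 and r = -0.891 with Ppargc1a over 8 libraries.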

How the data were processed

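RNA of the myotubes was sequenced as paired ends from libraries that were not strand-specific, per the labels' protocols. The values are FPKM, in 1 table the authors deposited that has 8 library columns, and no further scaling between libraries is stated. The submitters' processing notes name HISAT2, DESeq2 (version 2) and mm10 without a role for each. The counting tool and annotation release were not given in the sources used here. Because FPKM is relative to a library's total, a change in a few abundant transcripts moves all other values.

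Identifiers were matched to symbols in GENCODE vM21 (34490 of 35275 matched). Whole fragment numbers were recovered from the steps of the FPKM values for 10936 of 10981 tested genes (99.6%, tolerance 0.01), and gave the depths, 16324186 to 20187729 fragments.

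Genes averaging 1 FPKM or more were fitted on the log2(FPKM + 0.5) scale. The tests were two-sided and used limma (version 3.58.1, R version 4.3.3) with an intensity trend. A model of the 4 groups (4 residual degrees of freedom) gave the effect at each time and the difference of the effects, and an additive model of treatment and time (5 residual degrees of freedom) gave the effect over both times and that of time. The fits were tested on simulated data. Alternatives were pseudocounts of 0.1 and 1, filters of 0.1 FPKM, 5 FPKM and none, quantile normalization, median-ratio scaling, no trend, the replicate number as a term, a correction for GC content and length, each library left out and fits to 1 time. Precision weights from fragment numbers, and Cd36 with each library left out at the filter of 0.1 FPKM, were added after the data were seen. A lone library left in a group is assumed to vary like the other groups.

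The genes and lists were chosen with earlier results of these data known. Text names all 10 genes and, per list, up to 4 genes with the smallest p over both times and up to 2 for each other comparison. 1 gene of the pattern comparison is not reported here. Python 3.11.15 with pandas 2.3.3 and matplotlib 3.10.9 made tables and figures.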

Additional observations from a re-analysis of the deposited data

How the results depend on the processing

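Over both times, the rises of Acsl1 and Ppargc1a passed under every alternative listed for them, and so did the rises of Lpl and Acsl1 with time. The 12 h rises (2 genes) became 1 with the filter of 5 FPKM (Ppargc1a is then not tested) or quantile normalization, 1 with the GC and length correction (Fabp3, while Acsl1 and Ppargc1a were both lost), and 0 with the replicate block and GC and length correction or with only the 4 libraries of that time; without a library they were 1 to 2. The 12 h fall (1 gene) was 0 with only the 4 libraries of that time and 1 to 2 without a library. The 24 h rise (1 gene) was 0 with no filter, quantile normalization, the GC and length correction, the replicate block, and the block with that correction, and 0 to 2 without a library. With the filter of 5 FPKM, the rises over both times and with time were 1 each, since Ppargc1a and Lpl were not tested. The fall with time (1 gene) was 0 with the GC and length correction, with or without the replicate block, and 0 to 1 without a library. For the difference of the effects, no member passed in any alternative that kept 2 libraries per group. Acads at 12 h was 0.034 with the GC and length correction, with or without the replicate block, and the time effect of Mef2c was -0.40 without control 12 h replicate 2, the lowest of its values without a library, and 0.31 at the highest. The cause of these changes was not tested, other than genes left out by a filter.

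The replicate numbers did not pair the libraries: correlations of the differences between replicates 1 and 2 between groups ran from -0.61 to 0.24 over 10981 genes. With the replicate block the count of members that rose at 24 h went from 1 to 0 (Acsl1, adjusted p = 0.0735), and that of genes called lower at 12 h from 1566 to 823. Fragment numbers were small for Cpt1b, with at most 7, and for Cd36, with at most 14 in controls; for Cpt1b the part of sequencing depth and that of exons shared with Gm44502 were not separated.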

Other observations

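Several genes beside those described above passed the test for time. Lipe, the hormone-sensitive lipase, rose from 12 h to 24 h by 0.83 ± 0.11 on the log2(FPKM + 0.5) scale (limma adjusted p = 0.00183), from 0.691 ± 0.021 to 1.44 ± 0.167 FPKM in controls (SD, n = 2) and from 0.513 ± 0.043 to 1.47 ± 0.054 FPKM with MPC EVs. It passed the filter of 1 FPKM only through the 24 h libraries, the time at which it was high. Mgll, of the same list and named after its values were seen, was left out by its mean of 0.767 FPKM. It was at 1.14 FPKM in controls and 1.29 with MPC EVs at 12 h, and at 0.308 and 0.328 at 24 h. Dgat2, which makes triglyceride, rose by 0.65 ± 0.08 (adjusted p = 0.00133), and Slc27a1, a fatty acid transport protein, by 0.62 ± 0.12 (adjusted p = 0.0108). Cpt1c, a brain form of the carnitine transferase, rose by 0.62 ± 0.11 (adjusted p = 0.00683), and Foxo3, a transcription factor of the fasting response, by 0.52 ± 0.07 (adjusted p = 0.00225).

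Among enzymes, the peroxisomal thiolase Acaa1a rose with time by 0.47 ± 0.05 (adjusted p = 0.000666) and the mitochondrial thioesterase Acot2 by 0.45 ± 0.08 (adjusted p = 0.00536). Acadm, the medium-chain dehydrogenase, fell by 0.44 on the log2 scale (adjusted p = 0.00355) and Acat1, the thiolase of ketone use, by 0.44 (adjusted p = 0.00194). In all, 26 of the 104 tested list genes rose and 8 fell with time, where 13.5% of all tested genes rose and 9.18% fell, and 7 of 10 myotube markers fell and none rose. With the filter of 0.1 FPKM, which tests more genes, the split of the list genes was 24 and 12, where 9.89% of all genes rose and 7.09% fell. With the correction for GC content and length it was 17 and 9, where 11.1% rose and 10.1% fell.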
